A study of Mus musculus with 7 samples.

Results

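Triglyceride is the main lipid of milk, of fat droplets in adipocytes and of circulating lipoproteins, and the 10 genes examined here cover its assembly, its breakdown and the uptake of its fatty acids. They were chosen by name, as the rows for Gpam, Lpin1, Dgat1, Dgat2, Cd36, Lpl, Fabp3, Fabp4, Pnpla2 and Lipe among the 56440 gene models of the deposited table. Every one of the 10 had a row and passed the filter on low values. RNA sequencing was done on basal cells of the lactating mouse mammary gland, the layer that holds the contractile myoepithelial cells around the milk-secreting luminal cells. Fresh tissue taken on day 2 of lactation was digested with trypsin, and the cells were labelled and sorted by FACS.

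The 4 control libraries (Ctrl) carry a Blg-negative label and the 3 mutant libraries (a3a6KO) a Blg-positive double knockout label, and the submitters call both sets biological replicates. From general knowledge of this model, Blg is read as a Cre recombinase driven by the beta-lactoglobulin promoter, which acts in luminal cells, and the deleted genes as the laminin-binding integrin subunits α3 and α6. Since all mutants and none of the controls carry Blg, its own effect and that of the deletion cannot be told apart. For strain, age, the floxed alleles of the controls and the sorting gates, details were not given in the sources used here. Libraries are numbered in deposition order, and the numbers pair nothing.

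In an adipocyte or a secreting mammary cell, fatty acids arrive from lipoprotein triglyceride that lipoprotein lipase splits at the capillary wall, or are made inside the cell. They are bound by fatty acid binding proteins and joined stepwise to a glycerol backbone, by acyltransferases and a phosphatase, until a diacylglycerol acyltransferase adds the last chain. Lipases of the droplet surface release the fatty acids again. In the lactating gland this traffic is known mostly from luminal cells, capillaries and adipocytes.

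Depth and purity set the frame for every value. The libraries held from 9368418 (a3a6KO replicate 3) to 21548279 (Ctrl replicate 4) reads, and each value is a read count divided by a size factor of its library. Itga3 had 465 to 719 in Ctrl against 494 to 818 in a3a6KO, and Itga6 had 7764 to 10603 in Ctrl against 8343 to 9083 in a3a6KO, with log2 fold changes of 0.07 and −0.10 (limma adjusted p = 0.955 and 0.918). Those values cover whole genes, and a loss of single exons was not analysed here. Basal markers such as Krt5, Krt14 and Trp63 were high in all 7 libraries, and the summed level of the 10 basal markers ran from 859835 to 1161529.5 in Ctrl against from 959589 to 1076339 in a3a6KO. Transcripts that mark other cell types were present as well. The 8 milk protein genes summed to between 178476 and 1216122 in Ctrl against between 127082 and 521479 in a3a6KO, highest in Ctrl replicates 3 and 4 and a3a6KO replicate 3. The 18 endothelial markers summed to 7018 to 10684 in Ctrl against 12849.6 to 18420.1 in a3a6KO, with no overlap of the groups. In such bulk libraries, fewer cells of a type and less RNA per cell cannot be told apart.

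Promoter letters are shown for 4 of the genes for which RefSeq windows for build GRCm38.p6 were matched. Windows were matched for 6 of the 10 genes (Gpam, Lpin1, Cd36, Fabp3, Pnpla2 and Lipe), with a second start for Gpam and for Lipe. Each stretch below is the 250 bases before an annotated start site, 5′ to 3′ on the gene's strand, with motif matches in capitals.
Gpam, minus strand, chr19:55127239-55127488: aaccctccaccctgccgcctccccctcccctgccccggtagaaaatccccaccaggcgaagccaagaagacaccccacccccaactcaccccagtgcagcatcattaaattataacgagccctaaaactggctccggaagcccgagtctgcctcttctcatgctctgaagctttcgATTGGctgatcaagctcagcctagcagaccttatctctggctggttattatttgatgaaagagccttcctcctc
Cd36, minus strand, chr5:17835897-17836146: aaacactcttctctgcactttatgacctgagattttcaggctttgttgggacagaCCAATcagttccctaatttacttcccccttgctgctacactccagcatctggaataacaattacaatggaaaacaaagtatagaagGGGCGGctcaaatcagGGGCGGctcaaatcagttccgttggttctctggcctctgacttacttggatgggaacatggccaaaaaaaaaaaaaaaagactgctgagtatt
Pnpla2, plus strand, chr7:141454938-141455187: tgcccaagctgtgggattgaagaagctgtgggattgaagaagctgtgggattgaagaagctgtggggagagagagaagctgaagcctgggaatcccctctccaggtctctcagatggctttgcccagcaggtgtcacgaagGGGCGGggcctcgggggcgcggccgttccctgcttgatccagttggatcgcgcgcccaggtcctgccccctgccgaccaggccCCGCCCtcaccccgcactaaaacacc
Lipe, minus strand, chr7:25395988-25396237: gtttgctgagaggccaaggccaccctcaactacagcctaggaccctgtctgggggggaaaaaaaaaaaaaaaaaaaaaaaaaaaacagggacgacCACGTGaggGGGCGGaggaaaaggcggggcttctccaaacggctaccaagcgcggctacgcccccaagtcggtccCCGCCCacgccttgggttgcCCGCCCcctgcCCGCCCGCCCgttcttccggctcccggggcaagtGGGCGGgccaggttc
The capitals mark matches, on either strand, to any of 5 motifs, namely the NF-Y box CCAAT, the E-box CACGTG, the gamma-activated element TTCNNNGAA, the core promoter box TATAAA and the Sp-family box GGGCGG. In the Gpam window the only match was CCAAT, on the other strand and beginning 74 bases before the start, and 33.8% of all 32851 promoter windows of this length hold that motif. The window of the second Gpam start, not printed, had GGGCGG 16 bases before the start and no CCAAT, and that of the second Lipe start had no match. The windows of Lpin1 and Fabp3, also not printed, had no match to any of the 5 motifs. The Cd36 window, at a start inside the gene's span in the table, had CCAAT 195 bases and GGGCGG 109 and 93 bases before the start. GGGCGG occurs in 32.7% of all windows. Pnpla2 and Lipe also had GGGCGG, with 2 matches in Pnpla2 and 6 in Lipe, of which a pair overlap each other. Only the Lipe window of these 4 had CACGTG, found in 6.02% of all windows. None of the 4 windows held TTCNNNGAA or TATAAA, which 7.02% and 12.4% of all windows hold. A match is a run of letters and no measured binding site.

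No gene of the 10 passed the test for a difference between a3a6KO and Ctrl. This is limma on log2(value + 1), two-sided, with Benjamini-Hochberg adjustment over all 16889 genes tested and a threshold of 0.05, and it called 0 of those genes (0%). At an unadjusted p under 0.05, 2 of the 10 were higher in a3a6KO (Cd36 and Fabp4) and 2 lower (Gpam and Dgat2), against 3.55% of all tested genes higher and 2.78% lower (6.32% in all). DESeq2 on the recovered reads called 64 of 15602 genes (0.41%) and edgeR 0 of 17228 (0%, with 5.98% at an unadjusted p under 0.05), and neither called any of the 10. For 8 of the 10 the log2 fold change was below 0, against 50.5% of all genes. The median of the 10 was −0.19, against −0.004 over all genes, and it became 0.02 without Ctrl replicate 3. Gpam was the single gene of the 10 whose groups did not overlap, all mutants being lower, which holds for 3.51% of all genes tested, or 7.51% in either direction. The plot of values by library shows how differently the 10 genes varied.

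**Figure D1:**
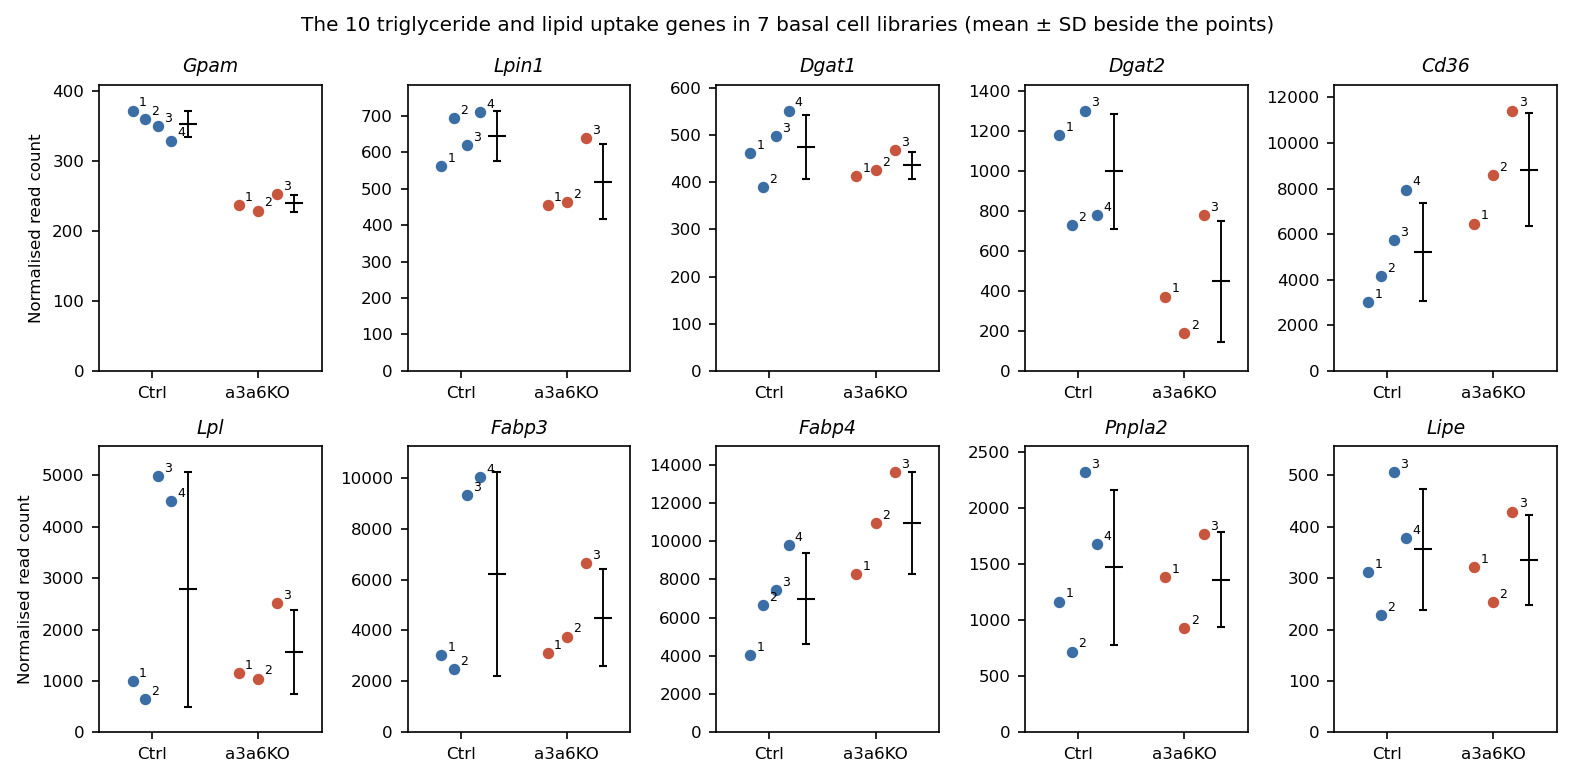
Normalised read count (linear axis from 0) of each of the 10 genes in 4 Ctrl libraries (blue) and 3 a3a6KO libraries (red), numbered by replicate, with the group mean ± SD in black. Gpam separates the groups, from 329 to 372 against 229 to 253, while Lpl and Fabp3 spread widely within Ctrl, from 649 to 4989 and from 2496 to 10013.

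Among the enzymes of triglyceride assembly, Gpam had the smallest spread. It encodes the mitochondrial glycerol-3-phosphate acyltransferase, which attaches the first fatty acid to the backbone, and lies on chromosome 19 from 55067268 to 55127204 (mm10, minus strand, identifier GSMG0020534). Its normalised read counts were 372, 359.5, 349.8 and 329 in Ctrl replicates 1 to 4 and 237, 229 and 253 in a3a6KO replicates 1 to 3. The 4 controls stayed within 1.13 times of each other and the 3 mutants within 1.1 times, and the highest mutant lay below the lowest control. The log2 fold change of a3a6KO over Ctrl was −0.55 (SE 0.13, 95% interval −0.85 to −0.26), with a limma adjusted p of 0.551. Across all 25 alternative settings it stayed between −0.60 and −0.52, and the lowest adjusted p, from DESeq2, was 0.0972. An annotated antisense gene, AC110206.1, overlaps this span, and whether reads were counted by strand is unknown. Gpam and the endothelial markers moved in opposite ways over the 7 libraries (Pearson r = −0.88, and −0.82 without the 2 libraries farthest from the median of those markers). Both separate the groups, so this r includes the group difference. Markers of lipid-handling capillary endothelium gave −0.80, and pericyte markers and red blood cell genes −0.70 each. Luminal and fibroblast markers gave −0.18 each, immune markers −0.04, adipocyte markers 0.22, milk protein genes 0.36 and basal markers 0.48. The part of cell makeup in the lower Gpam values was not tested.

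Lpin1 encodes a phosphatidate phosphatase, which makes diacylglycerol (chromosome 12, 16535669 to 16610967). Its values were 562, 694, 619 and 709.6 in Ctrl against 456, 464 and 639 in a3a6KO. Mutant replicates 1 and 2 lay below all controls and replicate 3 lay among them. The log2 fold change was −0.33 (SE 0.16, limma adjusted p = 0.789), and it was −0.48 without a3a6KO replicate 3.

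The last step is shared by a pair of unrelated enzymes, diacylglycerol acyltransferases 1 and 2. Dgat2 (chromosome 7, 99153658 to 99182718) had 1179, 730.4, 1302 and 779 in Ctrl against 372, 189.9 and 781 in a3a6KO. Its mutant values were uneven: replicates 1 and 2 lay below every control, and replicate 3 lay above Ctrl replicates 2 and 4. The difference was the largest of the 10 genes in size, with a log2 fold change of −1.34 (SE 0.43, 95% interval −2.31 to −0.38, limma adjusted p = 0.654). Leaving out a3a6KO replicate 2 gave −0.84, and leaving out replicate 3 gave −1.86. DESeq2 without a3a6KO replicate 3, the mutant that lay among the controls, gave −1.83 at an adjusted p of 3.4e-04. It was the only call of any of the 10 genes under any setting. That fit was added after the data were seen, and it called 51 genes over all genes tested.

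Dgat1 (chromosome 15, 76502015 to 76511818) had 461, 390.2, 497 and 552 in Ctrl against 413, 426 and 468 in a3a6KO. Every mutant value lay within the range of the controls, and the log2 fold change was −0.11 (SE 0.15, 95% interval −0.46 to 0.23, limma adjusted p = 0.904). The ratio of Dgat2 to Dgat1 values, examined after their values were seen, was 2.56, 1.87, 2.62 and 1.41 in Ctrl against 0.9, 0.446 and 1.67 in a3a6KO. It is not per length, so it compares libraries and not the amounts of the 2 enzymes. Over the 7 libraries Gpam and Dgat2 had r = 0.82 and Gpam and Lpin1 r = 0.68, but without a3a6KO replicates 1 and 2 these became 0.44 and −0.17. The relation between these genes therefore depends on those 2 libraries.

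**Figure D2:**
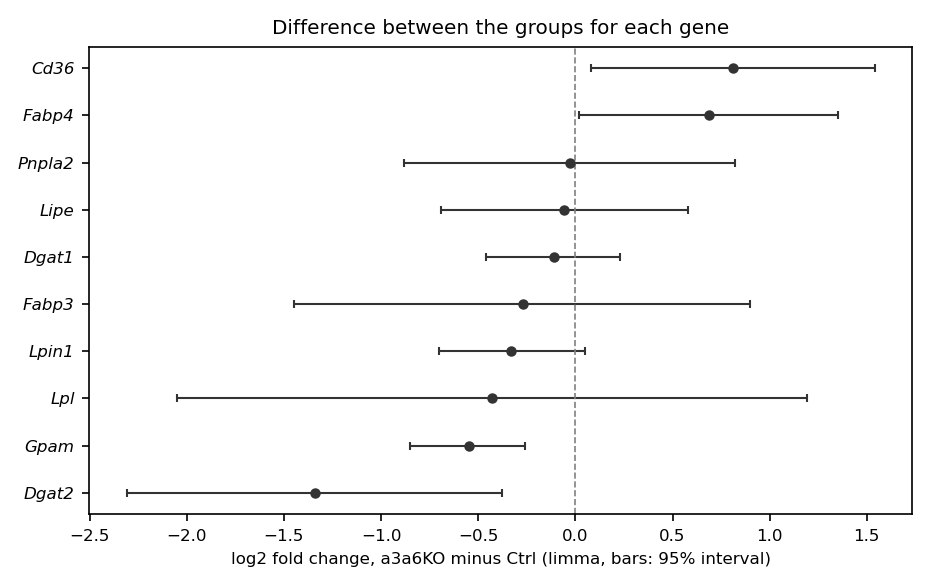
Log2 fold change of each gene, a3a6KO over Ctrl, on the scale of log2(value + 1), as points with 95% limma intervals over 4 and 3 libraries; the dashed line is no difference. The intervals of Dgat2 and Gpam lie below 0 and those of Cd36 and Fabp4 above it, without adjustment for the number of genes tested, and the other 6 include 0.

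Of the uptake and binding genes, Cd36 and Fabp4 had higher means in a3a6KO, with overlap of the groups. CD36 is a membrane receptor that aids entry of long-chain fatty acids. Its gene (chromosome 5, 17781690 to 17888959) had 3030.4, 4156, 5734 and 7953 in Ctrl against 6467, 8581 and 11424 in a3a6KO. Ctrl replicate 4 lay above a3a6KO replicate 1, and the other mutants were above all controls. The log2 fold change was 0.81 (SE 0.32, 95% interval 0.08 to 1.54, limma adjusted p = 0.739), and it ranged from 0.52 to 1.04 over the alternative settings.

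Fabp4 encodes the fatty acid binding protein best known from adipocytes, which capillary endothelium also makes (chromosome 3, 10204342 to 10208577). It had 4032, 6674, 7452 and 9790.2 in Ctrl against 8262, 10924 and 13607 in a3a6KO. The library order was the same as for Cd36, with Ctrl replicate 1 lowest and a3a6KO replicate 3 highest. The log2 fold change was 0.69 (SE 0.29, 95% interval 0.02 to 1.35, limma adjusted p = 0.768), or 0.44 without Ctrl replicate 1. Cd36 and Fabp4 had r = 0.98 over the 7 libraries, and 0.97 without Ctrl replicate 1 and a3a6KO replicate 3. Their ratio, Cd36 over Fabp4, stayed between 0.623 and 0.84 in all libraries.

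Both genes followed markers of lipid-handling capillary endothelium, a list of 8 genes (Gpihbp1, Aqp7, Rgcc, Car4, Btnl9, Meox2, Tcf15 and Aqp1) that includes neither. The list's summed level was 1636, 2682, 2925 and 4315 in Ctrl against 5264, 5800.4 and 7451 in a3a6KO, and no marker of it was at 0 in any library. In limma all 8 had a log2 fold change above 0. Of these, 5 had an unadjusted p under 0.05, against 3.55% of all genes in that direction. DESeq2 called 3, and it put Car4 at −0.04, against 0.29 (SE 0.56) in limma. Cd36 and Fabp4 each had r = 0.98 with the mean log2 level of this list over the 7 libraries, and 0.94 without Ctrl replicates 1 and 2. With the 18 general endothelial markers r was 0.86 for Cd36 and 0.85 for Fabp4. Both sides of each such r come from the same libraries and share their size factors. The part of capillary RNA in the higher Cd36 and Fabp4 values was not tested. With the adipocyte markers r was 0.16 for Cd36 and 0.07 for Fabp4. The red blood cell genes gave 0.76 and 0.81, pericyte markers 0.72 and 0.68, and luminal markers 0.72 and 0.63. Immune markers gave 0.65 and 0.63, fibroblast markers 0.41 and 0.38, milk protein genes 0.32 and 0.26, and basal markers −0.08 and −0.14.

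Fabp3 encodes the heart-type binding protein, known to be abundant in lactating mammary epithelium (chromosome 4, 130308740 to 130315462). It had 3044, 2496, 9321 and 10013 in Ctrl against 3109, 3759 and 6652 in a3a6KO. Ctrl replicates 3 and 4 were high, a3a6KO replicate 3 was intermediate and the other 4 libraries were low, whatever their group. The log2 fold change was −0.27 (SE 0.52, 95% interval −1.45 to 0.90, limma adjusted p = 0.93), and it turned to 0.01 without Ctrl replicate 3 and to 0.04 without Ctrl replicate 4. The end of Zcchc17, on the other strand, overlaps this gene.

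Lpl, for lipoprotein lipase, split the libraries in the same way (chromosome 8, 68880553 to 68907448). Its values were 990.1, 649, 4989 and 4502 in Ctrl against 1153, 1046 and 2514 in a3a6KO. The highest control was 7.69 times the lowest, the widest spread within Ctrl of the 10 genes. With a log2 fold change of −0.43 (SE 0.72, 95% interval −2.05 to 1.19, limma adjusted p = 0.924), a difference between the groups was not detectable at this spread, and the value was 0.02 without Ctrl replicate 3 and −0.96 without Ctrl replicate 2. DESeq2 and edgeR gave −0.84 each, and DESeq2 leaving out 1 library gave −1.35 (a3a6KO replicate 3) to −0.39 (Ctrl replicate 3).

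Lpl and Fabp3 had r = 0.99 over the 7 libraries, and 0.96 without Ctrl replicates 3 and 4. Ctrl replicates 3 and 4 and a3a6KO replicate 3 were highest for the milk protein genes too. But a3a6KO replicate 1, lowest for Csn2, was not lowest for Lpl or Fabp3. Rank correlation (Spearman rho) was 0.71 for Lpl and 0.82 for Fabp3 with the milk protein genes, and 0.86 and 0.96 with luminal markers. With immune markers rho was 0.83 and 0.74, and with adipocyte markers it was 0.89 for Lpl. Csn2, the gene for beta-casein, had 85812, 58533, 322723 and 431668 in Ctrl against 44719.8, 72387 and 177459.6 in a3a6KO. With the mean log2 level of the 8 milk protein genes r was 0.92 for Lpl and 0.95 for Fabp3, or 0.71 and 0.81 without Ctrl replicates 3 and 4. The 15 luminal markers gave 0.92 and 0.95 and, without Ctrl replicates 2 and 4, 0.84 and 0.91. Macrophage and other immune markers were high in the same 3 libraries, with r of 0.89 and 0.91. For the 11 tested adipocyte markers r was 0.82 with Lpl, or 0.89 without Ctrl replicate 2 and a3a6KO replicate 2, and 0.73 with Fabp3. The parts of luminal, immune and adipocyte RNA in these values were not tested. Dgat1 also followed the milk protein genes (r = 0.92, and 0.76 without Ctrl replicates 3 and 4), though its highest and lowest controls differed by only 1.42 times.

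**Figure D3:**
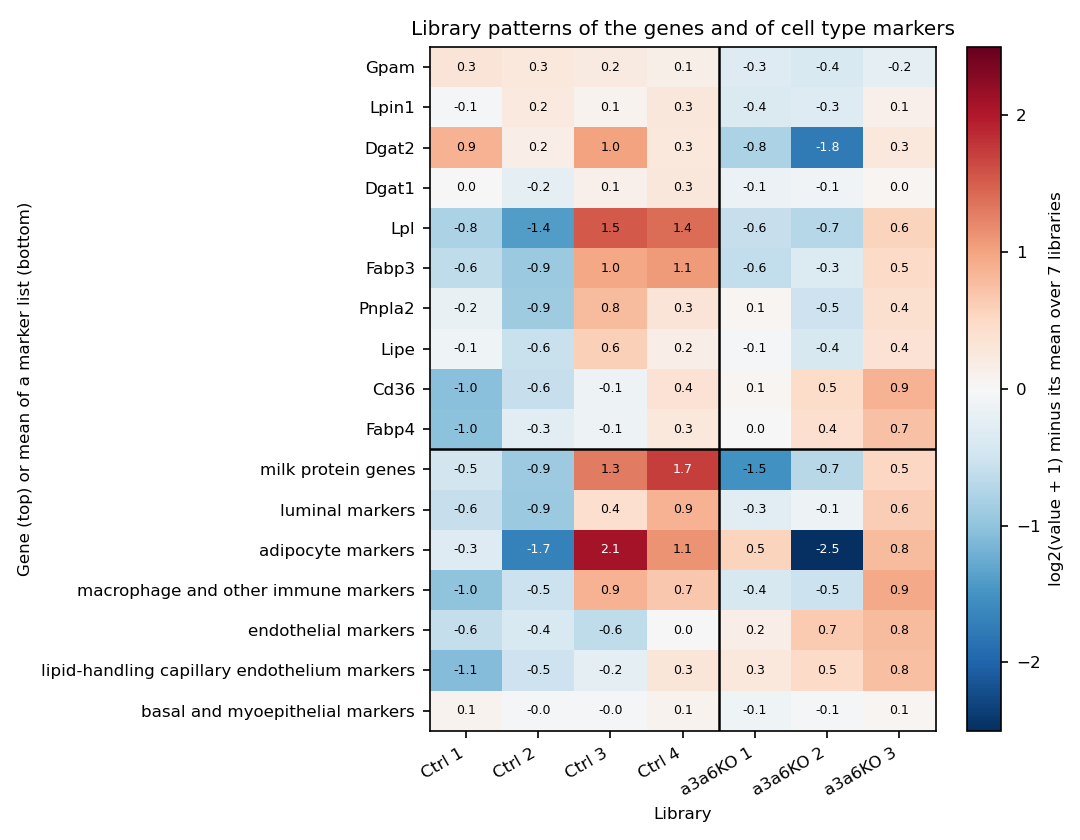
Each cell is log2(value + 1) of a gene, or the mean of a marker list, minus its mean over the 7 libraries (columns, Ctrl left and a3a6KO right of the line; red above the mean, blue below). Lpl, Fabp3, milk protein genes and luminal markers are red in Ctrl replicates 3 and 4 and a3a6KO replicate 3, while Cd36 and Fabp4 share the shading of the capillary list.

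The droplet lipases Pnpla2 and Lipe varied together, with no difference between the groups beyond their spread. Pnpla2 encodes adipose triglyceride lipase, which removes the first fatty acid from stored triglyceride (chromosome 7, 141455188 to 141460743). It had 1167, 721, 2322 and 1679 in Ctrl against 1386, 931 and 1772 in a3a6KO. The mutants lay within the range of the controls, and the log2 fold change was −0.03 (SE 0.38, 95% interval −0.88 to 0.82, limma adjusted p = 0.991). Its sign turned in 6 of 25 alternative settings.

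Lipe encodes hormone-sensitive lipase, which acts next, on diacylglycerol. Of the 2 rows that carry its name, the one with the higher mean was used (chromosome 7, 25336518 to 25396380). Other annotated genes overlap that span, among them Cnfn on the same strand, so reads from them could enter its count. The values were 311, 228, 506 and 377 in Ctrl against 322, 254 and 429 in a3a6KO. Again the mutants lay within the controls, with a log2 fold change of −0.06 (SE 0.28, 95% interval −0.69 to 0.58, limma adjusted p = 0.973) whose sign turned in 4 of 25 settings.

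Pnpla2 and Lipe ranked the 7 libraries in the same order, and had r = 0.99, or 0.97 without Ctrl replicates 2 and 3. They also moved with Lpl (r = 0.91 and 0.90) and with Fabp3 (0.84 each), so the 4 genes share much of their library pattern. Of the marker lists, both lipases followed the 11 tested adipocyte markers most closely, with r of 0.93 for Pnpla2 and 0.92 for Lipe. Without Ctrl replicate 2 and a3a6KO replicate 2, r was 0.97 and 0.89. With luminal markers r was 0.82 and 0.79, and with immune markers 0.80 and 0.82. Adipoq, which encodes adiponectin and defines adipocytes, had 91.4, 30.7, 782 and 343 in Ctrl against 256, 5.27 and 228 in a3a6KO. Plin1, the droplet coat protein of adipocytes, was at 0 in Ctrl replicate 2 and a3a6KO replicate 2, the 2 libraries lowest for both lipases. In those 2 libraries Pnpla2 had 721 and 931, and the adipocyte marker Cfd had 343 and 104. The adipocyte list's summed level, 6692 to 23692 in Ctrl against 11816 to 23451 in a3a6KO, was led by Lep in 5 of the 7 libraries, by Plin4 in Ctrl replicate 1 and by Cfd in Ctrl replicate 3. Lep itself did not follow Adipoq. The part of adipocyte RNA in the lipase values was not tested.

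**Figure D4:**
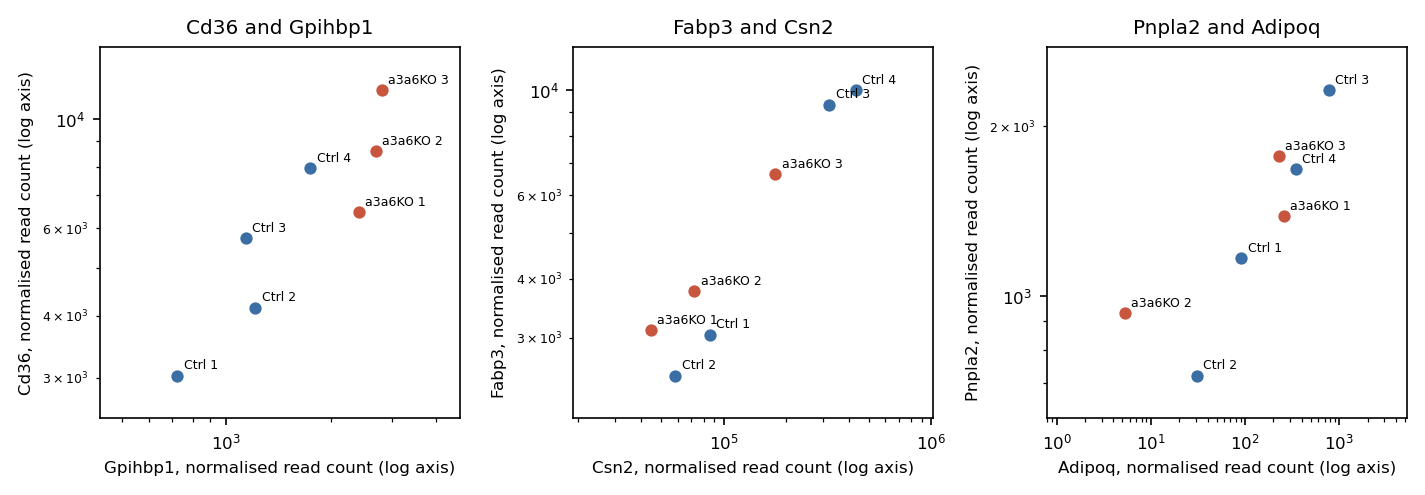
Normalised read counts of 3 genes (vertical, log axis) against a marker of another cell type (horizontal, log axis) in 4 Ctrl (blue) and 3 a3a6KO (red) libraries. Cd36 increases with capillary Gpihbp1, Fabp3 with the milk protein gene Csn2 and Pnpla2 with the adipocyte gene Adipoq, whose lowest library, a3a6KO replicate 2, had 5.27.

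Per kilobase of principal transcript, mean levels in Ctrl were highest for the binding proteins and lowest for Lpin1, Lipe and Gpam. Fabp4 had 7798 ± 2649.5 and Fabp3 7556 ± 4858 normalised reads per kilobase (SD, n = 4), which do not differ beyond their spread. Cd36 followed at 1535 ± 628, Pnpla2 at 818 ± 383, Lpl at 676 ± 554 and Dgat2 at 441 ± 126, where each overlaps the next within 1 SD. The SDs are spreads between libraries, and levels of different genes were not compared within each library. Dgat1 at 252 ± 35.9, Lpin1 at 116 ± 12.3, Lipe at 98.4 ± 32.5 and Gpam at 57.1 ± 2.91 came last, and of these Lpin1 and Lipe overlap. In a3a6KO the level of Fabp4 was 12200.1 ± 2983 and that of Fabp3 5476 ± 2292 (SD, n = 3), and Dgat2, at 198 ± 134, did not differ beyond its spread from Dgat1 at 231 ± 15.1. Dividing by the merged length of all exons would swap Fabp4 with Fabp3 and Dgat2 with Lpl in the order over all libraries.

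Genes that shared each pattern most closely were found among 10400 genes with a mean of at least 50, by Pearson r over the same 7 libraries. Nearest to Gpam were Calml3, C2cd5 and Pyroxd1 (r = 0.976, 0.976 and 0.975), and to Dgat2 Nupl1, Gpt2 and Supt20 (0.978, 0.961 and 0.959). For Lpin1 they were Nln, Chm and Rogdi (0.952, 0.948 and 0.948), and for Dgat1 Tm6sf1, Btn1a1 and Abracl (0.975, 0.967 and 0.966). Btn1a1 encodes butyrophilin, a coat protein of milk fat globules. Cd36 came closest to Fabp4, Sparcl1 and S1pr3 (0.983, 0.982 and 0.981), and Fabp4 to Ppm1j, Btnl9 and Cth (0.987, 0.985 and 0.985). Lpl was nearest to Gpd1, Tpd52 and G6pdx (0.992, 0.992 and 0.991), and Fabp3 to G6pdx, Slc28a3 and Muc1 (0.996, 0.993 and 0.993). G6pdx supplies NADPH, which fatty acid synthesis uses, and Gpd1 makes glycerol-3-phosphate, the substrate of Gpam. Pnpla2 had Lipe, Pnpla3 and Ss18 (0.987, 0.981 and 0.980), and Lipe had Aifm1, Ss18 and Pnpla2 (0.988, 0.988 and 0.987). With 7 points and this many genes, such values describe the libraries only.

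Around lipoprotein lipase, Gpihbp1 and Angptl4 had log2 fold changes above 1. That of Lpl itself was −0.43 (SE 0.72), with no direction beyond its spread. GPIHBP1 is the capillary protein that carries the lipase to the vessel lumen, and its gene is also one of the 8 capillary markers. Gpihbp1 had 724, 1214, 1138 and 1746 in Ctrl against 2406, 2689 and 2808 in a3a6KO, with no overlap, as in 4% of all genes tested in that direction. Its log2 fold change was 1.19 (SE 0.26, limma adjusted p = 0.532), and DESeq2 gave 1.12 at an adjusted p of 0.0176, the 1 call among the 69 tested pathway genes beside the 10. That DESeq2 call was kept when Ctrl replicate 1, Ctrl replicate 4 or a3a6KO replicate 1 was left out, and lost when any of the other 4 libraries was. Fabp4 per Gpihbp1, a ratio formed after the values were seen, was 5.5 to 6.55 in Ctrl against 3.43 to 4.85 in a3a6KO, so Gpihbp1 was higher in the mutants also relative to Fabp4. For Cd36 per Gpihbp1 the ranges, 3.42 to 5.04 and 2.69 to 4.07, overlapped.

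Angptl4 encodes a secreted inhibitor of the lipase. It had 3503, 6223, 7987 and 8323 in Ctrl against 25779.6, 6859 and 22226 in a3a6KO. Mutant replicates 1 and 3 were far above all controls and replicate 2 was among them. The log2 fold change was 1.35 (SE 0.47, limma adjusted p = 0.691), and DESeq2 without a3a6KO replicate 2 or without Ctrl replicate 4 called it, at adjusted p values of 1.1e-05 and 0.0229. Vldlr, a receptor for lipoproteins, had 2821, 2867, 1315 and 1231 in Ctrl against 1383, 1398 and 1123 in a3a6KO (−0.55, SE 0.32, limma adjusted p = 0.797). Ctrl replicates 1 and 2, low for Lpl, were the high ones for Vldlr. Of the 9 tested genes of this list beside Lpl, 5 had a log2 fold change above 0 and 4 below, with a median of 0.03, and limma called 0.

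**Figure D5:**
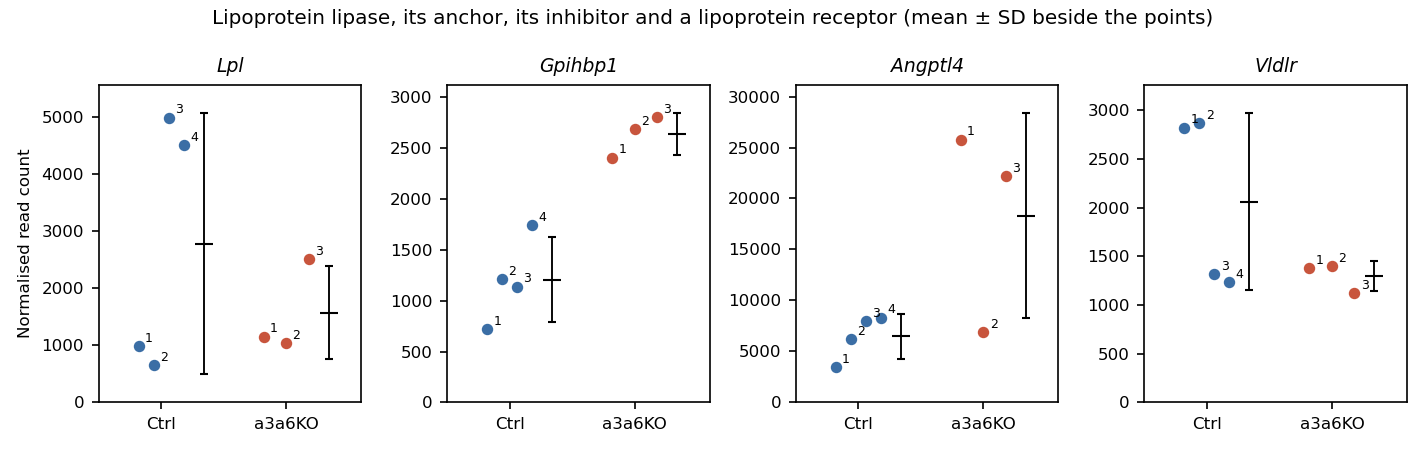
Normalised read count (linear axis from 0) of Lpl, Gpihbp1, Angptl4 and Vldlr in 4 Ctrl (blue) and 3 a3a6KO (red) libraries, numbered by replicate, with group mean ± SD in black. Gpihbp1 separates the groups, at 724 to 1746 against 2406 to 2808, whereas Lpl overlaps and Angptl4 is high in a3a6KO replicates 1 and 3.

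Other steps of the pathway gave a wider view, from 7 lists with 69 tested genes beside the 10. Of these, 27 had a log2 fold change above 0 and 42 below, with a median of −0.11. Limma called 0 of them, 4 were higher and 2 lower at an unadjusted p under 0.05, against the 3.55% and 2.78% of all genes given above. In triglyceride assembly, 4 of 10 were above 0 and 6 below. Mogat2, a monoacylglycerol acyltransferase, was at 13.1, 7.27, 11.9 and 10.6 in Ctrl against at 4.14, 0 and 0 in a3a6KO, too few reads for a stable fold. Gpat4 and Agpat2, which act at the first and second acylation, had 0.02 (SE 0.16) and −0.31 (SE 0.32). Gpam, which acts at the same step as Gpat4, had −0.55. Lpin2 and Lpin3, paralogs of Lpin1, had 0.22 (SE 0.21) and 0.37 (SE 0.29), or 0.03 when a3a6KO replicate 3 and 0.17 when a3a6KO replicate 2 was left out.

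Among 7 acyl-CoA synthetases and fatty acid transport proteins, 6 were below 0 and 1 above, with a median of −0.28 and none called. Acsl1, which activates long-chain fatty acids, had 924, 662, 1961 and 1635 in Ctrl against 725, 825 and 1461 in a3a6KO, high in the same libraries as Lpl. Slc27a3 and Slc27a1, of the fatty acid transport protein family, had log2 fold changes of −0.34 each (SE 0.26 and 0.31), and Acsl4 had −0.28 (SE 0.27). Each was sensitive to 1 library, with limma values from −0.53 to −0.19 for Slc27a3, −0.56 to −0.09 for Slc27a1 and −0.48 to −0.10 for Acsl4 when libraries were left out in turn.

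Droplet proteins were evenly split, 5 of 10 above 0 and 5 below. Plin2, the coat protein of droplets in non-adipose cells, had 1649.8, 2189, 4087 and 4329 in Ctrl against 2867, 2188 and 3697 in a3a6KO (0.01, SE 0.35). Hilpda, an inhibitor of Pnpla2 induced by low oxygen, had 169, 332, 255 and 387 in Ctrl against 403, 384 and 977 in a3a6KO (0.96, SE 0.38, limma adjusted p = 0.738), or 0.53 without a3a6KO replicate 3. Cidea, which enlarges droplets and is known from milk fat secretion, ranged from 475 to 2907 in Ctrl against from 468 to 1379 in a3a6KO, again with Ctrl replicates 3 and 4 highest. Plin3 had −0.28 (SE 0.18).

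Of the 7 lipolysis genes beside Pnpla2 and Lipe, 6 were below 0 and none was called. The exception was Mgll, the monoacylglycerol lipase that completes lipolysis, with 2606, 3335, 2686 and 4918 in Ctrl against 5271, 4746 and 3768 in a3a6KO (0.48, SE 0.23, limma adjusted p = 0.789). Abhd5, the activator of Pnpla2, had −0.22 (SE 0.24), and G0s2, its inhibitor, −0.22 (SE 0.28), while Ddhd2 had −0.28 (SE 0.18).

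In fatty acid uptake and binding, beside Cd36, Fabp3 and Fabp4, 4 of 5 were above 0 and 1 below. That one was Dbi, the acyl-CoA binding protein, at 5635, 7604, 7677 and 7977 in Ctrl against 4037, 4561 and 5818 in a3a6KO. Mutant replicate 3 lay just above Ctrl replicate 1, and the log2 fold change was −0.59 (SE 0.18, limma adjusted p = 0.618). Cav1, of caveolae, had 0.22 (SE 0.20). Acbd3 had 0.12 (SE 0.15), which turned to −0.02 without a3a6KO replicate 3.

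Among 21 regulators, 7 were above 0 and 14 below, with a median of −0.17 and none called. Pparg, the nuclear receptor that drives many lipid uptake genes in adipocytes and capillaries, had 254, 379, 461 and 398 in Ctrl against 619.7, 692 and 495 in a3a6KO. It was the 1 regulator of the 21 whose groups did not overlap, as in 4% of all genes tested in that direction. The log2 fold change of Pparg was 0.71 (SE 0.22, limma adjusted p = 0.631). Insig1, which restrains sterol regulatory element binding proteins, had −0.60 (SE 0.30), and Prkaa2, a catalytic subunit of AMP-activated kinase, −0.61 (SE 0.31). Thrsp, linked to fatty acid synthesis, had 2656, 1564, 8662 and 8888 in Ctrl against 1885, 1502 and 3879 in a3a6KO, the split seen for Lpl and Fabp3. Cebpb ranged from 6648 to 14732 in Ctrl against from 4526 to 25017 in a3a6KO.

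The marker lists themselves differed between the groups to unequal degrees, by counts from the same limma fit and with 0 limma calls in each. DESeq2 called 9 of the 18 endothelial markers, 3 of the 8 capillary markers and 1 red blood cell gene, against 0.41% of all genes, and none of the other lists. Endothelial markers had 17 of 18 log2 fold changes above 0 and 15 higher at an unadjusted p under 0.05, with a median of 1.02, led in level by Eng (0.99, SE 0.20) and Pecam1 (1.03, SE 0.22). The median was 0.94 for the capillary list, 0.52 for 10 pericyte markers and 2.13 for 3 tested red blood cell genes. All 5 listed red blood cell genes summed to 25.1 to 359 in Ctrl against 612 to 787 in a3a6KO. Milk protein genes were all 8 below 0 with a median of −0.99, and adipocyte markers had 9 of 11 below 0 with a median of −1.13, with overlap of the groups for every gene of both lists. Their spread was wide, as for Csn2 (−0.97, SE 0.75) and Adipoq (−1.22, SE 1.43). The adipocyte markers above 0 were Lep (0.84, SE 0.67) and Plin4 (0.19, SE 0.23). Medians lay near 0 for luminal (−0.03), immune (−0.04), fibroblast (0.09) and basal markers (−0.07).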

How the data were processed

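Each value in the deposited table is a signal, a gene count divided by the authors by the library's DESeq2 size factor, per the submitters' processing notes and the file's title. Those notes list build mm10, STAR 2.4.0 and, without roles, Picard, SAMtools and FastQC. Libraries were prepared with SMARTer v4, per the labels' protocols. As to the read counter and strand, settings were not given in the sources used here. Every value was a whole multiple of 1 step per library within 0.01 read, which gave back whole reads for 100% of values, and 61.8% to 63.8% of recovered counts from 1 to 20 were even, an excess that unpaired single reads would not show. The cause was not tested, and the DESeq2 and edgeR p-values, which treat each count as separate reads, carry that uncertainty.

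Values of at least 10 in at least 3 libraries left 16889 genes, tested with limma 3.58.1 (R 4.3.3, empirical Bayes trend) on log2(value + 1), a3a6KO minus Ctrl. This scale understates changes of low genes. Alternatives were other pseudocounts (0.5 and 10), filters, scalings, library weights, no trend, edgeR 4.0.16 and DESeq2 1.42.0 on recovered reads, and leaving out each library. DESeq2 leaving out each library was added after the data were seen. Scripts were tested on simulated counts.

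The members and all 7 pathway and 10 marker lists were chosen with earlier results of these data known. Named beside the members are, of each pathway list, the 3 genes of smallest p and 2 of highest level, of each marker list the 2 of each kind (not all printed), and for each member the 3 genes of highest r. 1 gene that this rule names is not reported here. Adipoq, Plin1, Krt5, Krt14 and Trp63 are named as defining markers. Ratios were chosen after values were seen. Lengths are those of the longest principal transcript in GENCODE vM21 (GRCm38).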

Additional observations from a re-analysis of the deposited data

Results flagged for a closer look

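The mean log2(value + 1) of the fibroblast markers was 9.11 in Ctrl replicate 3, against 7.74, 7.81 and 7.93 in the other controls. The gap was 0.861 of the group's range, above the 95% critical value of Dixon's test for 4 samples. It was the 1 such value among 20 measures checked in Ctrl (the 10 genes and 10 marker lists), and by chance about 1 in 20 would pass. Ctrl replicate 3 also held the highest Lpl, Dgat2, Pnpla2 and Lipe values of that group.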

How the results depend on the processing

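No paired analysis was possible because the labels give no replicate numbers, litter or batch. Over 25 alternative settings Gpam, Lpin1, Dgat1, Dgat2, Cd36 and Fabp4 kept the sign of their difference. In limma, leaving out 1 library moved the median of the 10 genes from −0.37 to 0.02 (DESeq2: −0.43 to −0.12). It moved Lpl from −0.96 to 0.02, Fabp3 from −0.62 to 0.04, Pnpla2 from −0.33 to 0.23 and Lipe from −0.25 to 0.13, and library weights gave 0.10 for Pnpla2. In DESeq2 Pnpla2 turned to 0.19 without Ctrl replicate 3 and 0.09 without a3a6KO replicate 2, and Lipe to 0.13 and 0.06 without the same libraries. DESeq2 moved Dgat2 from −1.83 to −0.81 and called 1 of the 10 genes (Dgat2, without a3a6KO replicate 3) and otherwise 0. Acbd3 turned to −0.02 without a3a6KO replicate 3, from 0.25 at most. Over all genes limma and edgeR called 0, DESeq2 64, and DESeq2 without each library in turn 25, 25, 48 and 134 (Ctrl) and 82, 48 and 51 (a3a6KO). The causes were not tested. Within-group spread, up to 7.69 times for Lpl, limits the size of difference that 4 and 3 libraries can show.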
